A study of Mus musculus with 13 samples.

Results

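Markers of mature fat cells, 10 genes in all, were followed in RNA sequencing of mouse skeletal muscle. They are the secreted products Adipoq, Lep, Retn and Cfd, the lipid droplet coat genes Plin1, Plin4 and Cidec, the fatty acid carrier Fabp4, the lipase gene Lipe and the regulator Pparg. The 10 genes were chosen by symbol from the 49315 gene identifiers of the deposited count table, and all 10 passed the filter on low counts that left 16496 genes.

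The study sequenced polyA-selected RNA from skeletal muscle of mice that either lacked the microRNA locus miR-181a2b2 throughout the body (genotype miR-181a2b2-/-, here KO) or carried the floxed, intact locus (miR-181a2b2flox/flox, titled WT, here flox), on a diet labelled CHOW or HFSC. The 13 libraries, 7 of them flox (3 chow, 4 HFSC) and 6 KO (3 on each diet), held 20830943 to 45710227 counted reads. The design text also names hindlimb ischemia, but the labels do not say which limb, muscle or time a library came from, nor age, sex, strain or whether libraries of a group came from separate mice, so the p-values measure the spread between these libraries, which may be technical. The extraction protocol in the labels speaks of white adipose tissue, whereas every source label is skeletal muscle.

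Muscle holds fat cells between its fibres and bundles, and polyA RNA of whole muscle carries their transcripts beside those of the fibres, vessels and connective tissue. A mature fat cell stores triglyceride in 1 large droplet coated by perilipin 1 and CIDEC, releases fatty acids through hormone-sensitive lipase, the product of Lipe, and secretes adiponectin, leptin and complement factor D. Not all of the 10 genes belong to fat cells alone: Fabp4 and Pparg are also made in capillary endothelium, and Plin4 and Lipe in muscle fibres. In bulk RNA, fewer cells of a type and less RNA per cell cannot be told apart.

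The 2 microRNAs made from the deleted locus are shown first because their shared seed, bases 2 to 8 in capitals, sets the sites looked for in the 10 genes. Both mature sequences are from RefSeq (GRCm38.p6), 5′ to 3′, and lie on the plus strand of chromosome 2, at 38852741 to 38852763 for miR-181a and 38853845 to 38853868 for miR-181b.
mmu-miR-181a-5p: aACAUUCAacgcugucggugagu
mmu-miR-181b-5p: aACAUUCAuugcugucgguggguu
The hairpin gene Mir181a-2 had 0 to 2 counts and Mir181b-2 had 0 in every library, so the polyA counts do not check the genotype labels. The full 8-base site TGAATGTA occurred in the 3′ UTR of 5.42% of 21193 annotated genes and in 0 of the 10 adipocyte genes. The 7-base site TGAATGT occurred in 17.0% of genes and in Adipoq only among the 10, once, at base 387 of its 434-base 3′ UTR, shown with the match in capitals. The other 7-base site, GAATGTA, was found in 11.7% of genes and in 0 of the 10.
Adipoq site: ggctgagtgtaTGAATGTctaaagaccca
A match of letters is a description of the sequence and says nothing about whether the microRNA binds there.

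Promoter windows, from 250 bases before to 50 after the annotated start, are printed for Adipoq, Plin1 and Cfd. They were chosen because Plin1 followed Adipoq closely across libraries (Pearson r = 0.98 on log2 CPM) and Cfd less so (0.59). After subtraction of group means, r with Adipoq was 0.98 for Plin1 and 0.87 for Cfd. The RefSeq table (GRCm38.p6) held windows for 9 of the 10 genes, and Fabp4 had no entry. The Adipoq window is chromosome 16, 23146286 to 23146585, plus strand. The Plin1 window is chromosome 7, 79732727 to 79733026, minus strand. The Cfd window is chromosome 10, 79890603 to 79890902, plus strand. Capitals mark the letters TTGCNNAA, a core of sites bound by C/EBP factors.
Adipoq promoter: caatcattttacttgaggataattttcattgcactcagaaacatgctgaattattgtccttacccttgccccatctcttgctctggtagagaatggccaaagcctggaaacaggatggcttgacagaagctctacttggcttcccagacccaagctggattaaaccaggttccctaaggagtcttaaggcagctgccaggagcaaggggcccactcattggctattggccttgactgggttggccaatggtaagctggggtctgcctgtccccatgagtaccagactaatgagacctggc
Plin1 promoter: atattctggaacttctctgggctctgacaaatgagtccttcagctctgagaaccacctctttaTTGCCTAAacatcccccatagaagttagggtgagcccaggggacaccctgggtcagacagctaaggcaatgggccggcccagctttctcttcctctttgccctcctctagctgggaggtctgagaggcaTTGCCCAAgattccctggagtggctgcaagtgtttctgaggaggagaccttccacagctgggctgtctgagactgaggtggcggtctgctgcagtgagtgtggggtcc
Cfd promoter: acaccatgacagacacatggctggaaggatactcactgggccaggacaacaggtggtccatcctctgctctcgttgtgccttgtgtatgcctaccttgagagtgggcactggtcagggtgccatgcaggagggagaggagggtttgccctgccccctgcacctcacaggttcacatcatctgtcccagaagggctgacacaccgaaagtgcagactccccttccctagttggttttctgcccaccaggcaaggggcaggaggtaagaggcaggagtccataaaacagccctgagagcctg
The motif TTGCNNAA, searched on both strands, was present in 10.8% of 32851 promoter windows. Plin1 had it at -187 and -58 from the start, Lep at -55, Cidec at -198 and the third Pparg window at -215 and -16, whereas the Adipoq and Cfd windows held none. The letters AGGTCA, the unit of PPAR sites (16.3% of windows), occurred in 1 window each of 2 Pparg starts, at -28 and -9, and its direct repeat AGGTCANAGGTCA (0.0396% of windows) in none of the 13 windows of these genes.

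The genes lie at these GRCm38 positions in GENCODE M21. On plus strands are Adipoq (chromosome 16, 23146536 to 23158028), Lep (chromosome 6, 29060220 to 29073877), Retn (chromosome 8, 3655770 to 3660110), Cfd (chromosome 10, 79890853 to 79892655) and Pparg (chromosome 6, 115360951 to 115490399). On minus strands are Plin1 (chromosome 7, 79720218 to 79732903), Plin4 (chromosome 17, 56100591 to 56109803), Cidec (chromosome 6, 113424634 to 113435760), Fabp4 (chromosome 3, 10204088 to 10208576) and Lipe (chromosome 7, 25379527 to 25398710).

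All 10 adipocyte genes were detected in all 13 libraries, with at least 35 counts for Retn, the lowest, and at least 143 for Adipoq. Levels are given as CPM, read counts divided by the library size after TMM scaling. Between genes, they are compared per kilobase of exon. By that measure Fabp4 (median 55.3 CPM per kb, range 34.2 to 123 over 13 libraries), Plin4 (54.1, 34.8 to 98.3) and Cfd (48.3, 14.2 to 86.1) lay highest, and their ranges overlapped. Adipoq followed at 9.19 (5.15 to 22.2), then Cidec at 5.66 (3.08 to 18.7) and Lipe at 5.61 (4.25 to 10.5). Plin1 (2.84), Pparg (1.93), Retn (1.88) and Lep (1.33) lay lowest, and each of these neighbours overlapped the next. The Fabp4 level depends on the length used: on its longest principal transcript, 896 bases against 4489 bases of merged exons, the median was 276.9 CPM per kb, and Fabp4 then stood first by a wide margin. On that length Lipe (9.14) lay above Cidec (6.11), and Plin1 (4.68) and Pparg (3.22) were also over 1.5 times their merged-exon values.

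Each adipocyte gene was then followed through the 4 groups. Adiponectin, the product of Adipoq, is a hormone made almost only by fat cells. Adipoq stood at 16.03, 12.6 and 10.5 CPM in the chow flox libraries and at 12.7, 7.11 and 7.20 CPM in the chow KO libraries. On HFSC it stood at 11.4, 7.24, 19.3 and 13.1 CPM in flox and at 17.0, 14.9 and 30.7 CPM in KO. The HFSC KO libraries all lay above the chow KO libraries, and the other pairs of groups that differ in 1 factor overlapped. The group means were 13.04 ± 2.79 (SD, n = 3), 9.0 ± 3.20 (n = 3), 12.7 ± 4.99 (n = 4) and 20.8 ± 8.56 CPM (n = 3) for chow flox and chow KO, then HFSC flox and HFSC KO.

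Leptin, which Lep encodes, is the fat cell hormone that reports energy stores to the brain. Lep was at 4.45, 4.27 and 3.70 CPM in chow flox and 6.45, 3.40 and 2.28 CPM in chow KO. The HFSC values were 9.89, 3.55, 8.32 and 7.49 CPM in flox and 3.69, 10.5 and 16.9 CPM in KO. In flox, 1 HFSC library (3.55 CPM) lay below the chow libraries and the others above them. In KO, 1 HFSC library (3.69 CPM) lay within the chow range. The diets thus overlapped in both genotypes. Resistin, from Retn, had the narrowest group differences of the secreted products, with means of 3.20 ± 0.854, 2.32 ± 0.599, 3.02 ± 1.56 and 3.98 ± 2.43 CPM in the same order of groups, and all 4 groups overlapped.

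Complement factor D, or adipsin, the product of Cfd, is a protease of the alternative complement pathway and 1 of the most abundant transcripts of mouse fat. Cfd was at 78.8, 58.8 and 53.0 CPM in chow flox and 47.3, 28.9 and 36.5 CPM in chow KO, with no overlap. On the HFSC diet Cfd was at 13.1, 13.8, 51.0 and 20.4 CPM in flox and 44.6, 35.8 and 79.4 CPM in KO. Replicates 1, 2 and 4 of HFSC flox lay below every other library of the study. Replicate 3 of that group (51.0 CPM) lay just below the lowest chow flox library (53.0 CPM). HFSC flox and chow flox thus did not overlap, and the share of all genes with that separation was not counted. The means were 63.5 ± 13.5, 37.6 ± 9.25, 24.6 ± 17.9 and 53.3 ± 23.1 CPM.

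Of the droplet coat genes, Plin1, whose protein guards the droplet of fat cells against lipases, had nearly the same order of libraries as Adipoq. Plin1 was at 16.3, 13.2 and 10.3 CPM in chow flox, and 13, 6.87 and 6.76 CPM in chow KO. On HFSC, Plin1 was at 14.6, 7.60, 21.2 and 12.8 CPM in flox and 18.0, 14.9 and 28.5 CPM in KO. The HFSC KO libraries again lay above all chow KO libraries. Cidec, which fuses small droplets into large ones, was at 13.6, 9.13 and 9.79 CPM in chow flox and 7.33, 5.83 and 7.15 CPM in chow KO. The HFSC diet gave 10.9, 5.72, 13.2 and 10.5 CPM in flox and 13.1, 14.4 and 34.6 CPM in KO. Cidec separated chow KO, the lower, from chow flox and from HFSC KO, and its highest library, HFSC KO replicate 4, carried most of the spread of its group (20.7 ± 12.1 CPM).

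Plin4 is a perilipin of small droplets. It stood apart from the other 9 genes in its order of libraries. It was at 259, 211 and 335 CPM in chow flox and 207, 492 and 379 CPM in chow KO. On HFSC it was at 219, 201, 291 and 313 CPM in flox and 507, 447 and 568 CPM in KO. All 3 HFSC KO libraries lay above all 4 HFSC flox libraries, whereas the chow KO libraries reached from 207 CPM, among the lowest, to 492 CPM, among the highest. The Plin4 gene span overlaps Hdgfl2 on the other strand, and whether the counting used strand is not given in the sources used here, so reads of the 2 genes cannot be told apart where they overlap.

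Fabp4, the fatty acid carrier, was at 243, 248 and 169 CPM in chow flox and 182, 153 and 159 CPM in chow KO. On HFSC, Fabp4 was at 274, 199, 391 and 338 CPM in flox and 397, 389 and 553 CPM in KO. Every HFSC KO library lay above the highest chow KO library, and the means were 165 ± 14.9 CPM on chow and 446 ± 92.2 CPM on HFSC (n = 3 each). Lipe was at 33.2, 26.6 and 25.0 CPM in chow flox and 33.0, 32.1 and 25.7 CPM in chow KO. HFSC libraries had 27.4, 28.3, 34.3 and 35.03 CPM in flox and 46.2, 39.2 and 62.1 CPM in KO. Its HFSC KO libraries lay above all 10 others. Pparg, the nuclear receptor that drives fat cell formation, was at 5.69, 5.98 and 3.47 CPM in chow flox and 2.69, 3.72 and 3.53 CPM in chow KO. On HFSC it was at 4.93, 4.81, 9.42 and 7.20 CPM in flox and 8.77, 8.52 and 9.15 CPM in KO. The HFSC KO libraries of Pparg were the tightest group of the 4 (8.81 ± 0.314 CPM), and all lay above chow KO. Lipe and Pparg each overlap an antisense gene, 4732471J01Rik and Gm44079.

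**Figure D1:**
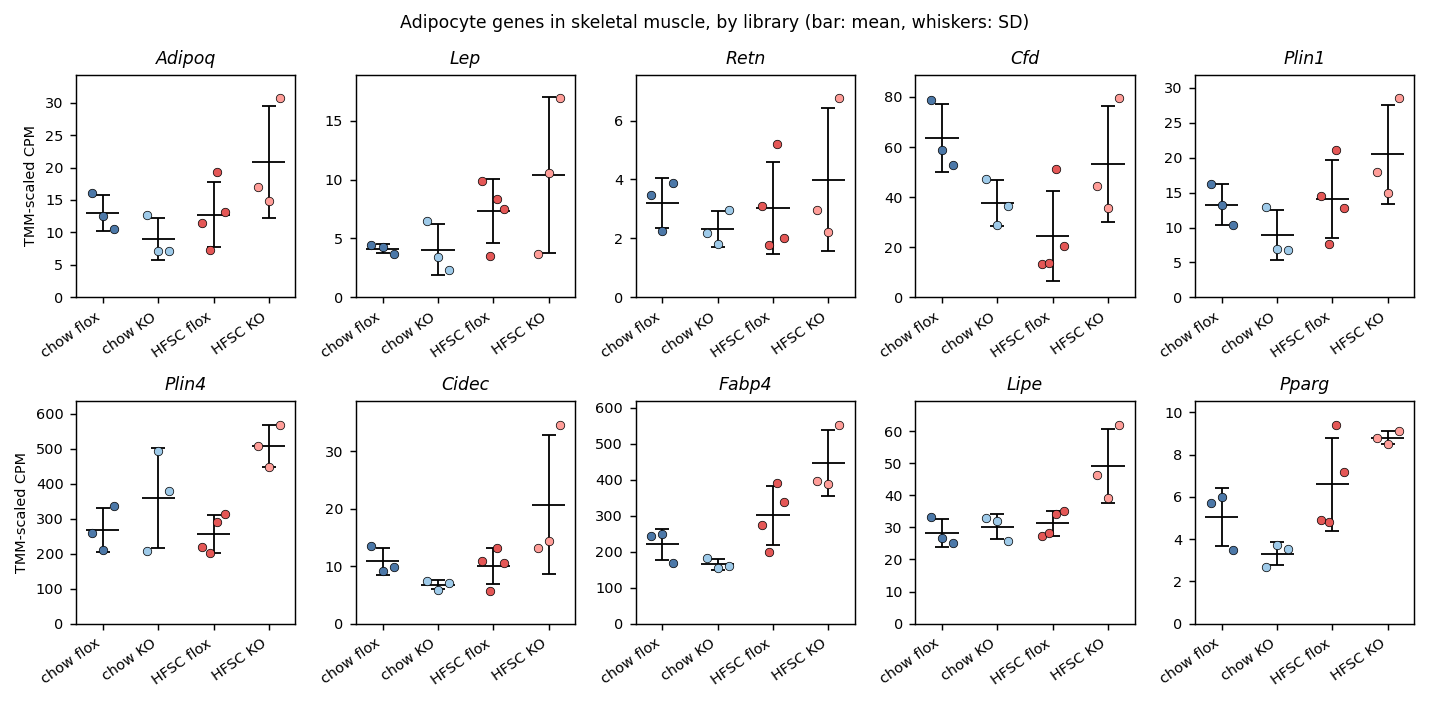
Level of each of the 10 adipocyte genes in every library (TMM-scaled CPM, 1 panel per gene), by genotype and diet; points are libraries, bars are group means and whiskers are SD. The HFSC KO libraries lie above the chow KO libraries for Adipoq, Plin1, Cidec, Fabp4, Lipe and Pparg, and HFSC KO replicate 4 is the highest of 13 for 9 of 10 genes.

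HFSC against chow in KO mice asks how the diet alters muscle when the locus is absent. Here 6 of the 10 adipocyte genes rose and 0 fell: Cidec by 1.61 ± 0.36 (log2 fold change ± SE; edgeR quasi-likelihood test, Benjamini-Hochberg adjusted p = 0.0103), Fabp4 by 1.44 ± 0.24 (adjusted p = 0.0032), Pparg by 1.41 ± 0.27 (0.00556), Adipoq by 1.21 ± 0.36 (0.0292), Plin1 by 1.20 ± 0.36 (0.0311) and Lipe by 0.70 ± 0.18 (0.016). The 4 that missed the threshold also had values above 0, with Lep at 1.35 ± 0.50 (adjusted p = 0.0633), Retn at 0.78 ± 0.46 (0.216), Plin4 at 0.50 ± 0.28 (0.198) and Cfd at 0.50 ± 0.46 (0.425). In this comparison 14.9% of all 16496 genes were called higher. The median of the 10 genes was 1.20 and that of all genes 0.02. The 3 HFSC KO libraries lay above the 3 chow KO libraries for the same 6 genes, and 26.8% of all genes had that separation. The count of 6 fell to 3 (Cidec, Fabp4 and Pparg) without HFSC KO replicate 4, where Adipoq was at 0.79 (adjusted p = 0.142), Plin1 at 0.86 (0.137) and Lipe at 0.47 (0.0776). It was also 3 without chow KO replicate 3 and 4 without chow KO replicate 2, and 7 without chow KO replicate 1 or HFSC KO replicate 2.

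Markers of other cells moved in the same comparison. Of 8 endothelial markers, among them Pecam1, Cdh5 and Kdr, 8 rose (median 1.19). Their summed level was 200.9 to 251.6 CPM in chow KO and 497 to 564 CPM in HFSC KO, against 228.6 to 438.5 in chow flox and 354 to 559 in HFSC flox. Of 8 macrophage markers 8 rose (median 2.05), from a sum of 37.3 to 73.8 CPM to one of 211 to 267 CPM, with 102 to 1009 CPM in chow flox and 211 to 342 CPM in HFSC flox. Of 8 markers of fibro-adipogenic progenitors, the mesenchymal cells from which muscle fat cells form, 6 rose (median 1.47), from 318 to 431 CPM to 1531 to 1995 CPM. In flox mice that sum was 792 to 3227 CPM on chow and 1696 to 2307 CPM on HFSC. With 1 library left out, 5 to 7 endothelial, 5 to 6 macrophage and 6 to 7 progenitor markers were called, with 5 endothelial and 5 macrophage markers without chow KO replicate 3. The same fits called 921 to 1901 of all genes higher, against 2459 with all libraries. None of these 24 markers was at 0 in any library. Of 8 slow fibre markers 8 fell (median -3.10), from a sum of 8611 to 10163 CPM in chow KO to one of 772 to 1272 CPM in HFSC KO, and 8 were called with any 1 library left out. Of 5 red blood cell markers 5 rose (median 0.81), from 54.9 to 84.1 CPM to 109 to 147 CPM, and 2 to 5 did with 1 library left out, with 2 when replicate 2 of chow KO or either of replicates 3 and 4 of HFSC KO was left out. The part of these markers in the adipocyte gene result was not tested, and since the labels do not name the muscle, diet and the piece of muscle taken cannot be told apart.

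Across the 13 libraries the adipocyte genes differed in how they followed the endothelial sum. On the log2 CPM scale Fabp4 and Pparg each had a Pearson r of 0.93 with it, Plin1 0.81, Adipoq 0.76, Cidec 0.70, Lep 0.69 and Lipe 0.61. Retn (0.33), Cfd (0.10) and Plin4 (0.10) followed it little. The endothelial sum was not the only one that Fabp4 and Pparg went with. Their r was -0.82 and -0.80 with the slow fibre sum, and 0.65 and 0.72 with the progenitor sum. These values describe 13 libraries that share the 4 groups and the scaling.

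**Figure D2:**
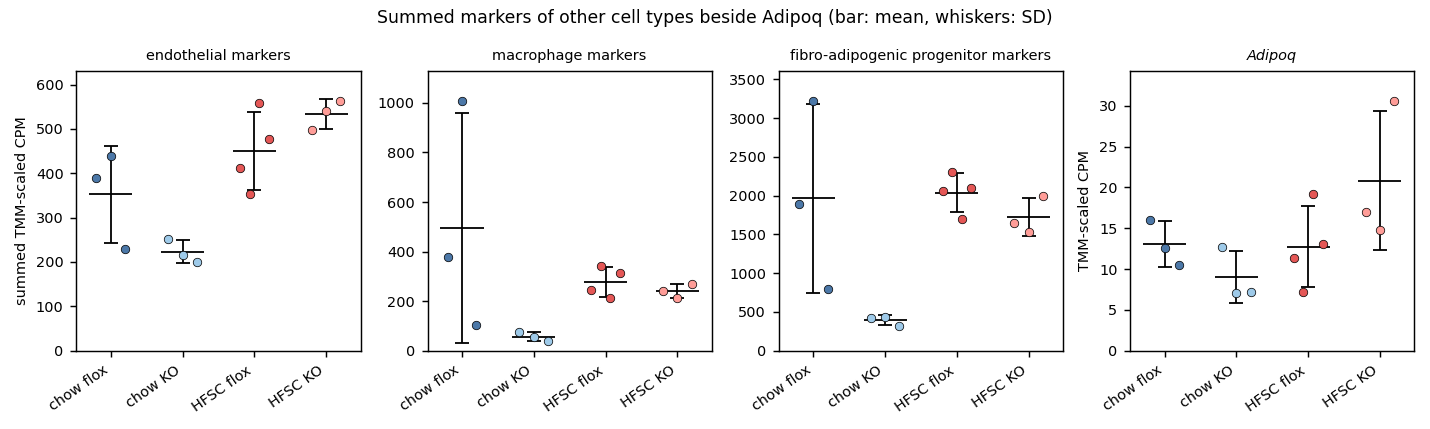
Summed level of the endothelial, macrophage and progenitor markers and, in the last panel, of Adipoq (TMM-scaled CPM, axes from 0), by group; points are libraries, bars are means and whiskers are SD. Chow KO libraries lie at the low end of each marker sum, between 200.9 and 251.6 CPM for endothelial markers.

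HFSC against chow in flox mice asks the same of mice with the locus. By edgeR 0 of 10 adipocyte genes were called, beside 0.418% of all genes in either direction; 1 of the 10 had an unadjusted p under 0.05 (2105 of all genes), DESeq2 called 0 (392 of all genes) and limma voom 1 (4145 of all genes). That 1 was Cfd, at -1.36 ± 0.42 (edgeR adjusted p = 0.205). Lep was at 0.83 ± 0.47, Fabp4 at 0.45 ± 0.22 and Pparg at 0.39 ± 0.25, and the other 6 lay between -0.10 and 0.15. The median of the 10 was 0.03, against -0.01 for all genes. Adipoq (-0.03), Plin1 (0.09) and Cidec (-0.10) each had an SE of 0.33, which sets how small a change could be seen.

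KO against flox on chow asks what loss of the locus does without the diet. By edgeR 0 of 10 were called, where 11.5% of all genes were called in either direction; 1 of 10 had an unadjusted p under 0.05 (5579 of all genes), DESeq2 called 0 (3256 of all genes) and limma voom 7, where voom called 9877 of all 16496 genes. Values were below 0 for 8 of 10, with Cfd at -0.76 ± 0.46, Cidec at -0.68 ± 0.36, Pparg at -0.61 ± 0.27 and Plin1 at -0.58 ± 0.36 (edgeR adjusted p = 0.135 to 0.268). Plin4 (0.42 ± 0.28) and Lipe (0.10 ± 0.18) lay above 0. The median was -0.50, against -0.01 for all genes. Cfd and Cidec were lower in each chow KO library than in each chow flox library, a separation that 13.9% of all genes had. In this comparison 8 of 8 macrophage, 6 of 8 progenitor and 2 of 8 endothelial markers fell, with medians of -2.71, -1.26 and -0.58. When either replicate 2 or 3 of chow KO, or replicate 3 of chow flox, was left out, edgeR called 0 of all genes in this comparison, these markers included.

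KO against flox on HFSC gave values above 0 for all 10 adipocyte genes, none of which passed. By edgeR 0 of 10 were called, beside 0.0182% of all genes, 5 of 10 had an unadjusted p under 0.05 (1721 of all genes), DESeq2 called 2 (Lipe and Plin4; 165 of all genes) and limma voom 0 (33 of all genes). The 5 with an unadjusted edgeR p under 0.05 were Cfd, Cidec, Plin4, Lipe and Fabp4. Cfd was at 1.11 ± 0.42, Cidec at 1.03 ± 0.33 and Plin4 at 0.99 ± 0.26. Lipe was at 0.65 ± 0.16 and Fabp4 at 0.57 ± 0.22 (edgeR adjusted p = 0.229 to 0.396 for the 5). Adipoq was at 0.70 ± 0.33 (edgeR unadjusted p = 0.0514, adjusted p = 0.48). The median was 0.61, against 0.00 for all genes. Lipe and Plin4 were higher in all 3 HFSC KO than in all 4 HFSC flox libraries, and 7.4% of all genes were. Here the medians of the endothelial (0.23), macrophage (-0.05) and progenitor (0.01) markers were nearer to 0, and 0 of those 24 markers were called. The 5 red blood cell markers had a median of 1.10, with 5 of 5 above 0 and Hba-a1 called (1.23, edgeR adjusted p = 0.0347), a call lost in 5 of 7 fits with 1 library left out (replicates 1, 2 and 3 of HFSC flox, 3 and 4 of HFSC KO). Their sum was 47.7 to 69.4 CPM in HFSC flox and 109 to 147 CPM in HFSC KO, with no overlap, and its part in the adipocyte gene values was not tested.

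**Figure D3:**
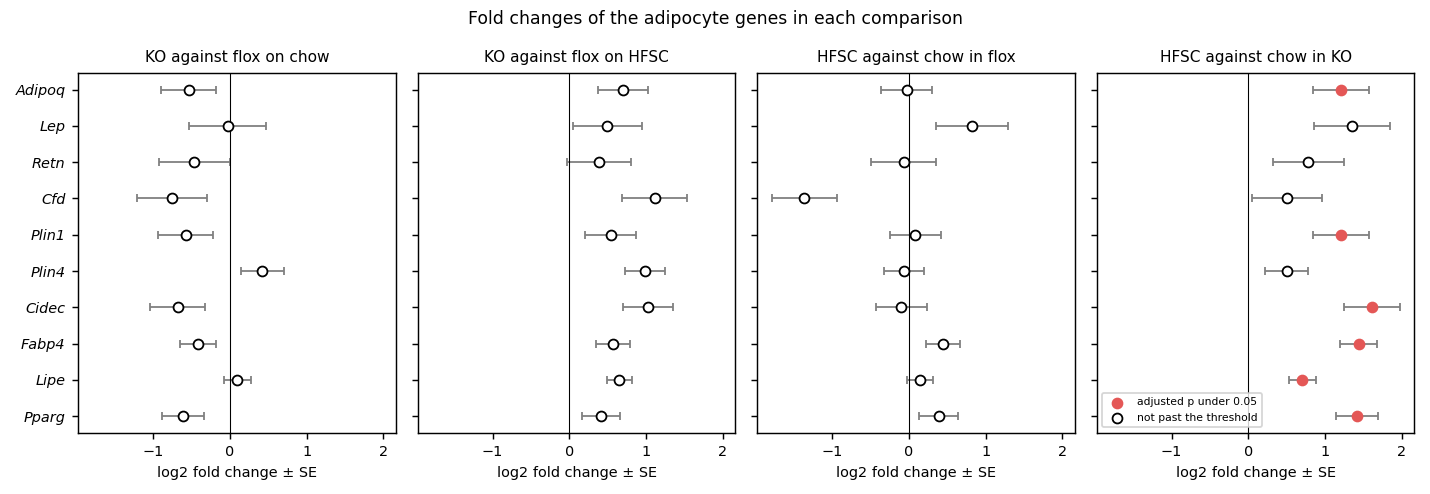
Log2 fold change of the 10 adipocyte genes in the 4 comparisons (edgeR, points with SE as whiskers), with called genes marked. In KO mice all 10 values of HFSC against chow lie above 0 and 6 were called; in the other 3 panels 0 were called.

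The difference between the genotypes in their diet response was tested as an interaction. All 10 adipocyte genes had an interaction above 0, from 0.52 for Lep to 1.87 for Cfd, with a median of 1.01 against 0.04 for all genes. By edgeR 0 of 10 were called and 0.0% of all 16496 genes; 7 of 10 and 4811 of all genes had an unadjusted p under 0.05. DESeq2 called 3 of the 10 (Cfd, Cidec and Fabp4) and 2025 genes in all, and limma voom 7 and 7061. The lowest edgeR adjusted p were those of Cidec (1.71 ± 0.49, 0.0782), Fabp4 (0.99 ± 0.32, 0.0938) and Cfd (1.87 ± 0.62, 0.0969). Thus the 6 calls in KO and the 0 calls in flox are not shown to differ by edgeR. The 5 comparisons share libraries, so their values are not independent of each other.

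To compare the adipocyte genes with each other inside a library, their reads were divided by the Adipoq reads of that library, which removes library scaling. Plin1 kept 0.930 to 1.28 reads per Adipoq read in the 13 libraries, a coefficient of variation of 8.71%, while Adipoq itself ranged 4.31-fold. Cidec kept 0.578 to 1.13 (17.4%). Plin4 ranged from 15.1 to 69.2 (56.7%), Fabp4 from 14.3 to 27.4, Lipe from 1.78 to 4.51, Pparg from 0.212 to 0.664, Lep from 0.216 to 0.869 and Retn from 0.150 to 0.413.

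Cfd was lower against Adipoq on HFSC in both genotypes. Its own level was lower in flox and higher in KO, and neither change was called. In flox, Cfd was at -1.36 ± 0.42 (log2 fold change ± SE, not called) and Adipoq at -0.03 ± 0.33. In KO, Cfd was at 0.50 ± 0.46 (not called) and Adipoq rose by 1.21 ± 0.36. The lower ratio in KO came with a Cfd change above 0 and a larger rise of Adipoq. Cfd had 4.91, 4.67 and 5.04 reads per Adipoq read in chow flox and 3.73, 4.06 and 5.08 in chow KO. On HFSC it had 1.15, 1.91, 2.65 and 1.56 in flox and 2.62, 2.41 and 2.59 in KO. All 7 HFSC libraries lay below all 6 chow libraries, the nearest being 2.65 and 3.73, with exact 95% intervals from counting error alone of 2.43 to 2.89 and 3.32 to 4.19. The mean log2 difference of HFSC from chow within genotypes was -1.12, a ratio of 0.461 (two-sided exact permutation test within genotypes, p = 0.00143, the smallest that 700 arrangements can give; 0.0257 after Benjamini-Hochberg adjustment over 18 comparisons). It was the only 1 of 18 to pass, and these tests were chosen after the data had been seen. Leaving out each library in turn gave -1.22 to -1.02. With each of the other 8 genes in place of Adipoq it was -1.55 to -0.81, with exact permutation p from 0.00143 to 0.0814. Plin4 was the only denominator with a p over 0.05. All HFSC libraries lay below all chow libraries with 4 of the 9 denominators (Adipoq, Plin1, Cidec and Fabp4), and the diets overlapped with Lep, Retn, Plin4, Lipe and Pparg. The next lowest p was that of Fabp4, with 0.38 more on HFSC (exact permutation p = 0.03, adjusted 0.27). For KO minus flox no ratio passed; Cfd was at 0.18 (exact permutation p = 0.387).

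The slow fibre genes split the libraries by diet in the same way as the Cfd ratio. The sum of 8 slow fibre markers was 6898 to 10163 CPM in the 6 chow libraries and 772 to 2067 CPM in the 7 HFSC libraries, and the labels do not name the muscle. For the Cfd ratio, diet and slow fibre content cannot be told apart in these libraries. The sums for endothelial, macrophage and progenitor markers overlapped between the diets in flox but not in KO. In KO the endothelial sum was 200.9 to 251.6 CPM on chow and 497 to 564 CPM on HFSC. The macrophage sum was 37.3 to 73.8 and 211 to 267 CPM, and the progenitor sum 318 to 431 and 1531 to 1995 CPM. Within KO these sums cannot be told apart from diet either, and their part in the Cfd ratio was not tested.

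**Figure D4:**
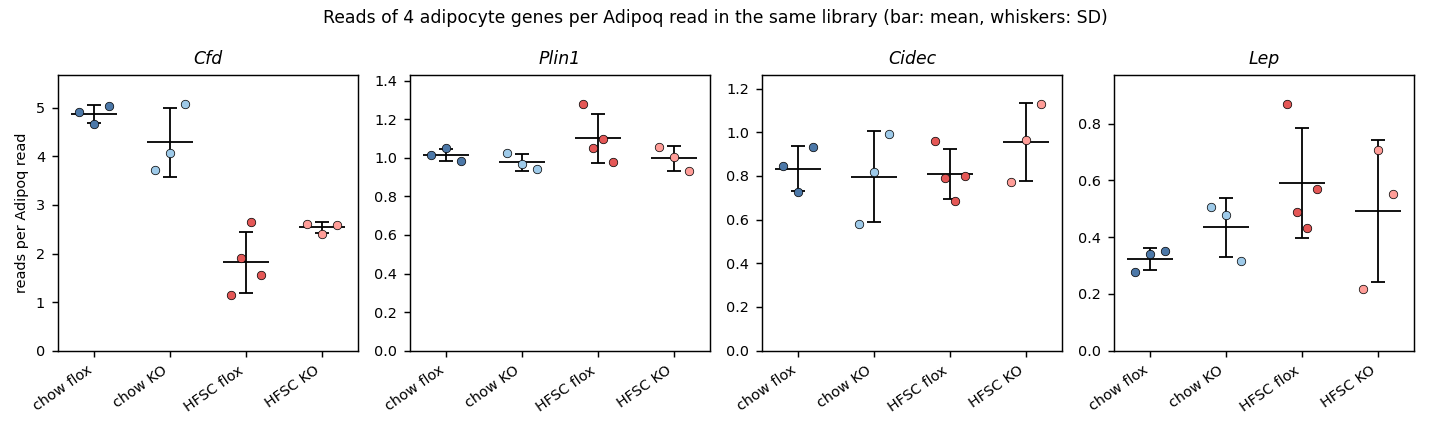
Reads of Cfd, Plin1, Cidec and Lep per Adipoq read in the same library, by group; points are libraries, bars are means and whiskers are SD, with the axis starting at 0. Cfd lies at 3.73 to 5.08 in the chow libraries and 1.15 to 2.65 in the HFSC libraries, and Plin1 stays near 1 in every library.

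The adipocyte genes also followed each other to different degrees. Over the 13 libraries, on log2 CPM, r with Adipoq was 0.98 for Plin1, 0.93 for Cidec, 0.87 for Fabp4, 0.79 for Lipe, 0.74 for Lep, 0.72 for Pparg, 0.71 for Retn, 0.59 for Cfd and 0.30 for Plin4. After subtraction of group means, r was 0.87 for Cfd, 0.98 for Plin1 and -0.04 for Plin4. The 36 pairs without Plin4 had a median r of 0.72 and the 9 pairs with it 0.31. Of all 16496 genes Plin1 ranked 2 by r with Adipoq, after Adipoq itself. The 10 genes outside the set most like Adipoq were Trarg1, which encodes a regulator of glucose transporter traffic in fat cells (r = 0.94), Gucy1a1, a subunit of the nitric oxide receptor (0.93), Rasl12 (0.93), Tmem45b (0.93), Ctcflos (0.92), Ctdspl (0.91), 9130008F23Rik (0.91), Strip2 (0.91), Sncaip (0.91) and Pon1 (0.90). These r values describe 13 libraries in 4 groups.

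Other genes of fat storage were counted from lists in the comparison where the adipocyte genes were called, HFSC against chow in KO. Of 8 lipolysis genes, 2 rose and 0 fell (median 0.38): Mgll, the monoglyceride lipase, from 50.4 ± 4.37 to 117 ± 18.1 CPM (1.21, edgeR adjusted p = 0.00136) and Aqp7, the glycerol channel of fat cells, from 6.35 ± 1.24 to 17.2 ± 2.37 CPM (1.43, 0.00428). Of 13 triglyceride synthesis and droplet genes, 2 rose and 4 fell (median 0.33), where 10.6% of all genes were called lower, and 1 to 4 were called with 1 library left out, with 1 without chow KO replicate 3. Plin5, the perilipin of oxidative tissue, rose from 20.2 ± 4.66 to 48.7 ± 7.30 CPM (1.27, adjusted p = 0.0102) and Agpat2 rose by 0.54 (0.0497). Dgat2, which makes triglyceride from diacylglycerol, fell by 1.05 (0.0313), Gpam, the first step of glycerolipid synthesis, by 0.75 (0.0104), Plin3 by 0.90 (0.0328) and Bscl2 by 0.38 (0.0341). The calls of Agpat2 and Bscl2 were lost in 10 and 9 of 13 alternative fits. Of 10 further adipocyte-enriched genes 2 rose, Pck1 from 6.41 ± 1.86 to 33.7 ± 18.8 CPM (2.39, 0.00916) and Trarg1 (1.57, 0.0129), with a median of 0.83.

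Of 11 regulators of fat cell formation, 3 rose and 3 fell in that comparison (median 0.73). Dlk1, a marker of preadipocytes, rose by 2.48, Cebpa, the partner of Pparg in fat cell formation, by 1.42 and Klf5 by 1.36 (edgeR adjusted p = 0.00475, 0.00864 and 0.019). Rxra, Srebf1 and Zfp423 fell by 0.93, 0.91 and 0.53. The call of Zfp423 was lost in 8 of 13 alternative fits, that of Rxra in 4 and that of Klf5 in 3. Srebf1, Dlk1 and Cebpa kept their calls in all 13. Of 4 adipokine receptor genes Adipor1 fell from 342 ± 32.4 to 203 ± 19.5 CPM (-0.75, 0.032), a call that was lost with any 1 of the 6 libraries left out. With 14.9% of all genes called higher, counts such as 2 of 8, 2 of 13 and 2 of 10 are not read as particular to these lists.

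On chow, KO against flox, the alternative complement genes C3ar1 (-3.40), Cfp (-1.86) and Cfb (-1.84) fell (edgeR adjusted p = 0.0188, 0.045 and 0.0313), and Cfd did not pass (-0.76). There Gpam (0.60), Dgat2 (1.07), Srebf1 (0.69) and Adig (1.34) rose and Cebpa (-1.24), Dlk1 (-1.95) and Dio2 (-2.14) fell. All chow calls named here were lost when replicate 2 or 3 of chow KO or replicate 3 of chow flox was left out. The chow KO libraries enter both comparisons, so the opposite signs of Cebpa, Dlk1, Dio2, Gpam, Dgat2 and Srebf1 in the 2 comparisons are not independent. In KO against flox on HFSC, HFSC against chow in flox, and the interaction, 0 genes of these lists were called by edgeR.

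Brown fat markers differed in level. Of Ucp1, Cidea, Dio2, Elovl3 and Prdm16, 3 passed the filter. Prdm16 had group means of 3.89 to 5.70 CPM and Cidea of 1.24 to 3.29 CPM, and neither was called in HFSC against chow in KO. Dio2, which activates thyroid hormone and is also made in muscle, rose by 1.73 on HFSC in KO (edgeR adjusted p = 0.024), a call lost in 5 of 13 alternative fits. Ucp1, the heat-producing uncoupling protein that defines brown fat, had 0 to 6 counts in 12 libraries and 51 counts (1.82 CPM) in HFSC KO replicate 4, the library with the highest level of 9 of the 10 adipocyte genes. Elovl3 had 0 to 4 counts in every library. Keratinocyte markers, as a sign of skin, summed to 2.15 to 3.49 CPM with Krt5, Krt14 and Krt1 at 0 to 4 counts. Dsp of that list, a desmosome gene also made outside skin, rose on HFSC in KO from 0.183 ± 0.0702 to 1.05 ± 0.488 CPM (2.51, edgeR adjusted p = 0.0212), a call lost in 5 of 6 fits with 1 library left out. The 8 fast fibre genes summed to 78499 CPM or more in every library.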

How the data were processed

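Counts per gene were deposited by the authors as 1 table of 13 libraries. Per the submitters' processing notes, featureCounts (Subread 1.5.2) counted reads that had been trimmed by Trimmomatic 0.36 and aligned to GRCm38 by STAR 2.5.2b; annotation release, strand setting and multimapping rules: not given in the sources used here. Of 49315 identifiers 49056 matched GENCODE M21. From the counts, CPM were computed with TMM factors (0.834 to 1.32; 3 counts equal 0.0633 to 0.152 CPM), and all 4 groups were fitted in edgeR 4.0.16 (R 4.3.3; filterByExpr, robust quasi-likelihood), with Benjamini-Hochberg adjustment over 16496 genes and a threshold of 0.05. SE is |log2 fold change| / sqrt(F). Alternatives were RLE factors, library totals, DESeq2 1.42.0, limma 3.58.1 voom with quality weights, no filter, a replicate block, 2-group fits and leave-one-out. Correlations between genes were taken on log2 CPM (prior count 2). Those with the marker sums used log2 CPM with no prior count for the genes and a small constant added to the sum. The named genes are all 10 adipocyte genes, up to 4 called genes per list and direction, smallest p first, and the 10 tested genes of highest r with Adipoq. The genes and lists were chosen with earlier results of these data known. 1 listed gene is not reported here. The fit was also run on simulated counts, whose results are not given here and are not relied on. Replicate pairs differed by more than sampling noise (chi-square per degree of freedom 10.5 to 193).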

Additional observations from a re-analysis of the deposited data

How the results depend on the processing

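Over 730 alternative values of the single adipocyte genes, 660 kept their direction and side of the threshold, 28 passed it newly, 13 no longer passed and 29 changed sign. Most of the 660 were values that were not called to begin with. The 13 lost calls were all in HFSC against chow in KO, with 5 for Adipoq, 5 for Plin1 and 3 for Lipe. The median log2 fold change of the 10 genes stayed at 0.78 to 1.39 for HFSC against chow in KO, -0.84 to -0.38 for KO against flox on chow, 0.37 to 0.79 on HFSC, -0.16 to 0.22 for the diet in flox and 0.79 to 1.38 for the interaction. For HFSC against chow in KO, 3 to 7 of the 10 genes were called with 1 library left out, 3 with a replicate block (Cidec, Fabp4 and Pparg, with Adipoq at adjusted p = 0.0752), 4 with no filter and 7 with DESeq2. Over all genes 1493 of 16496 were called higher with the replicate block, 1871 of 32648 with no filter and 2893 of 16496 with DESeq2. With 1 library left out, 921 to 1901 of all genes were called higher. Whether the replicate numbers pair the samples is not known. Deviations of same-numbered libraries from their group means had r of -0.341 to 0.109 over 16 pairs. Libraries with different numbers were not correlated for reference, so these r values do not settle a pairing. The block removes only what goes with a shared number. For KO against flox on chow, voom called 7 of 10 and leave-one-out fits 0 to 1 (Pparg without chow flox replicate 4), Lep ranged from -0.54 to 0.25, and Lipe was -0.25 with library totals and -0.12 with voom. Without chow flox replicate 4 that comparison called 3534 of all 16972 genes higher and 3727 lower. Over all genes that comparison called 1898, 0 with the replicate block and 9877 with voom; library totals moved the median of all genes to -0.35 there and to 0.21 for the diet in KO. On HFSC, DESeq2 called 2 of 10 for KO against flox, Lep was -0.083 with voom and -0.063 to 0.90 with 1 library left out, and Retn -0.24 to 0.78; both were below 0 without HFSC KO replicate 4. For the diet in flox, voom called 1 and leave-one-out fits 0 to 1 (Cfd, without HFSC flox replicate 3). In that leave-one-out fit 11 of all 16388 genes were called higher and 34 lower. There Plin1 was -0.084 with library totals, -0.22 with voom, -0.073 with the replicate block and -0.18 to 0.28 by leave-one-out. Lipe was -0.018 with library totals and -0.068 with voom, and Plin4 was 0.13 with the replicate block. Leave-one-out ranges there were -0.20 to 0.13 for Plin4, -0.30 to 0.16 for Adipoq, -0.47 to 0.11 for Retn and -0.25 to 0.12 for Cidec. For the interaction, DESeq2 called 3, voom 7 and leave-one-out fits 0 to 3, and Lep ranged from -0.035 to 1.04. The 3 came without chow flox replicate 4, where 3191 of all 16972 genes were called higher and 2737 lower. Cfd reads per Plin4 read differed by -0.83 between the diets, with exact permutation p = 0.0814. For KO minus flox, reads per Adipoq read ranged from -0.16 to 0.27 for Lep, -0.29 to 0.029 for Retn, -0.018 to 0.18 for Cidec, -0.036 to 0.12 for Fabp4 and -0.24 to 0.081 for Pparg with 1 library left out. The cause of these changes was not tested.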
